A study of Homo sapiens with 18 samples.

Results

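The comparison described here set 3 libraries of a HAP1 line labelled as 6 days without doxycycline against 3 libraries of the same line grown with the drug. They are 6 of the 18 libraries of the series and were taken by their labels alone, and all 59251 genes of the deposited tables were considered. HAP1 is an attached, near-haploid human line that was derived from KBM-7, a line of chronic myeloid leukaemia. According to its labels, the line measured here has SARS2 deleted and carries a SARS2 transgene with 1 FLAG tag (delSARS2+SARS2-1xFLAG, called the deleted line below), and doxycycline at 15 ng/mL was present until it was withdrawn. Both groups compared carry the deletion and the transgene and differ in the drug. The series also holds the deleted line at 3 and 9 days without doxycycline and the parental HAP1 line with and without doxycycline, each as 3 libraries. The time without the drug is not labelled for the parental line. Only 1 deleted line was measured. Whether replicates were separate cultures is not labelled. The p-values therefore measure only how far these samples spread, and that spread may be technical.

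SARS2 encodes the mitochondrial seryl-transfer RNA synthetase, which loads serine onto the transfer RNAs that serve protein synthesis inside the organelle. The proteins made there are core subunits of the respiratory chain and of the ATP synthase, and they assemble with subunits encoded in the nucleus. When mitochondrial protein synthesis or respiration fails, mammalian cells are known to phosphorylate the translation factor eIF2, a reaction called the integrated stress response, which favours translation of the transcription factor ATF4. ATF4 and its partners of the C/EBP family then raise genes for amino acid uptake, serine and asparagine synthesis, transfer RNA loading and secreted stress factors.

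Promoter sequence is shown for 4 genes of the ATF4 list that rose at day 6, a call kept without each of the 6 libraries. Each window holds the letters TGATGNAA, a core of the C/EBP-ATF response element to which ATF4 dimers bind. Other members that rose hold these letters as well. Only matches lying wholly before the start of the gene, with 30 bases on each side, are shown. The sequences are RefSeq's for GRCh38.p14, read 5′ to 3′ on the gene's own strand, with 30 bases on each side of the match, and capitals mark the match. AARS1 (alanyl-transfer RNA synthetase) is shown at chr16:70289656-70289723 on the minus strand, ASNS (asparagine synthetase) at chr7:97872439-97872506 on the minus strand, ATF3 (a stress transcription factor) at chr1:212565186-212565253 on the plus strand, and CHAC1 (a glutathione-degrading enzyme) at chr15:40953232-40953299 on the plus strand. The matches begin 187, 68, 191 and 209 bases before the start of the gene, in that order. Those of AARS1 and CHAC1 lie on the opposite strand and therefore read TTGCATCA.
AARS1: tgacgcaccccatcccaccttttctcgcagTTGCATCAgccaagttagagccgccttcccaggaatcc
ASNS: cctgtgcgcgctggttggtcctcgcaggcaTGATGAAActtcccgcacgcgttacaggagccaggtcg
ATF3: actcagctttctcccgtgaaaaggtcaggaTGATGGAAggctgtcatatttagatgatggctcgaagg
CHAC1: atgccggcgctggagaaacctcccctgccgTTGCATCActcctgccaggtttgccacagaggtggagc

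Windows of 250 bases before to 50 after the start were searched on both strands, each motif on its own. TGATGNAA was found in 11 of the 39 members of the ATF4 list with a window (28.2%). It was in 6 of 16 cytosolic transfer RNA synthetases with a window (37.5%), and all 6 are among those 11 members. The share was 269 of the 14347 tested genes with a window (1.87%) and 1003 of all 27305 genes with one (3.67%). Of the 269 tested genes with a match, 58 (21.6%) were higher at day 6, against 2166 (15.4%) of the 14078 without. Members of the ATF4 list are among the 58. In the parental line without doxycycline these shares were 27.5% and 22.8%. For the day 6 change minus the parental change, 7.43% with and 6.23% without a match were called higher, and 9.67% and 8.08% lower. TCACNCCAC, the sterol regulatory element, was in 1 of 19 windows of the cholesterol list (5.26%, against 1.07% of tested genes) and in 0 of 14 of the fatty acid synthesis list. TCACGTGA, the CLEAR element of lysosomal genes, was in 5 of 18 windows of the lysosome list (27.8%, against 1.64%). A match is a description of these letters and not evidence of binding.

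Levels below are CPM, the usual scaled read count, here relative to library totals adjusted by the TMM factors. A gene was called when its adjusted p fell under 0.05 in edgeR's quasi-likelihood test, fold changes are on the log2 scale with day 6 over doxycycline positive, and errors of fold changes are standard errors. Libraries of the 2 groups held 66850705 to 96123623 counts, and 21615 genes passed the filter on low counts. The deleted gene itself did not separate the groups. SARS2 (chr19:38915266-38930763, minus strand) was at 23.5, 25.2 and 23.9 CPM with doxycycline and at 23.2, 25.8 and 25 CPM at day 6, and the ranges overlapped (log2 fold change 0.03 ± 0.10, adjusted p = 0.86). Reads of the transgene and of what remains of the deleted locus carry the same gene name, so these counts do not check the labels, and the time labels are used as given. Its divergent neighbour MRPS12, a mitochondrial ribosomal protein, starts close by on the other strand and fell (log2 fold change -0.64 ± 0.14, adjusted p = 0.0025), and with the strand setting unknown the counts of this gene pair are uncertain. NFKBIB (-0.19) and SIRT2 (0.10), the next genes on the other side, were not called.

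Among the 18 libraries, day 6 did not lie between day 3 and day 9. On the first principal component of log2 CPM (35.5% of the variance) the day 6 libraries were at -29.7, -50.7 and -39.3, and the doxycycline libraries of the same line at -8.23, -5.82 and 12.2. Day 3 (33.0 to 40.9) and day 9 (72.3 to 83.5) lay on the opposite side, and the parental libraries without doxycycline (-77.9 to -65.1) lay beyond day 6. Tested directly, day 6 differed from day 3 in 9234 genes (42.7% of those tested) and from day 9 in 12709 genes (58.8%). The mesenchymal marker VIM was at 591 to 678 CPM over the 6 libraries. Of 10 blood cell markers 4 passed the filter on low counts, while PTPRC, GATA1, SPI1 and ITGAM were among those that did not.

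At day 6, 6070 genes were called (28.1% of those tested), of which 3034 rose and 3036 fell, 14% of those tested in each direction. Where no share stands beside a day 6 count of list members below, these 14% apply. Of all genes tested, 15.2% were called also without each of the 6 libraries in turn. Changes were mostly small. Rises of at least 2-fold were called for 640 genes (2.96%) and falls of that size for 228 (1.05%). Scaling by library size alone gave 4048 higher and 2244 lower genes, and removing a trend on gene length and span gave 1925 and 3964. The balance of rises and falls thus depends on the scaling, while the gene groups below were checked under each. Bulk RNA cannot tell fewer cells of a kind from less RNA per cell.

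Doxycycline removal also changed the parental line, which keeps its own SARS2. There 4540 genes (21.0%) were higher and 3979 (18.4%) lower without the drug. The parental comparison shares no library with that of day 6. Of the genes that rose at day 6, 1701 (56.1%) were also called higher in the parental line, which is 37.5% of the parental calls in that direction, and 88 (2.9%) were called lower there. Of those that fell, 1602 (52.8%) were also lower in the parental line, 40.3% of its calls, and 128 (4.22%) were higher. Across all genes tested, Spearman's rho between both sets of fold changes was 0.461. The change at day 6 minus that of the parental line was tested directly, and 1186 genes (5.49%) were more positive and 1543 (7.14%) more negative. Below, "beyond the parental change" refers to this test, and counts of list members in it stand against these shares. How much of the parental difference comes from the drug, from time in culture or from cell density was not tested.

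**Figure D1:**
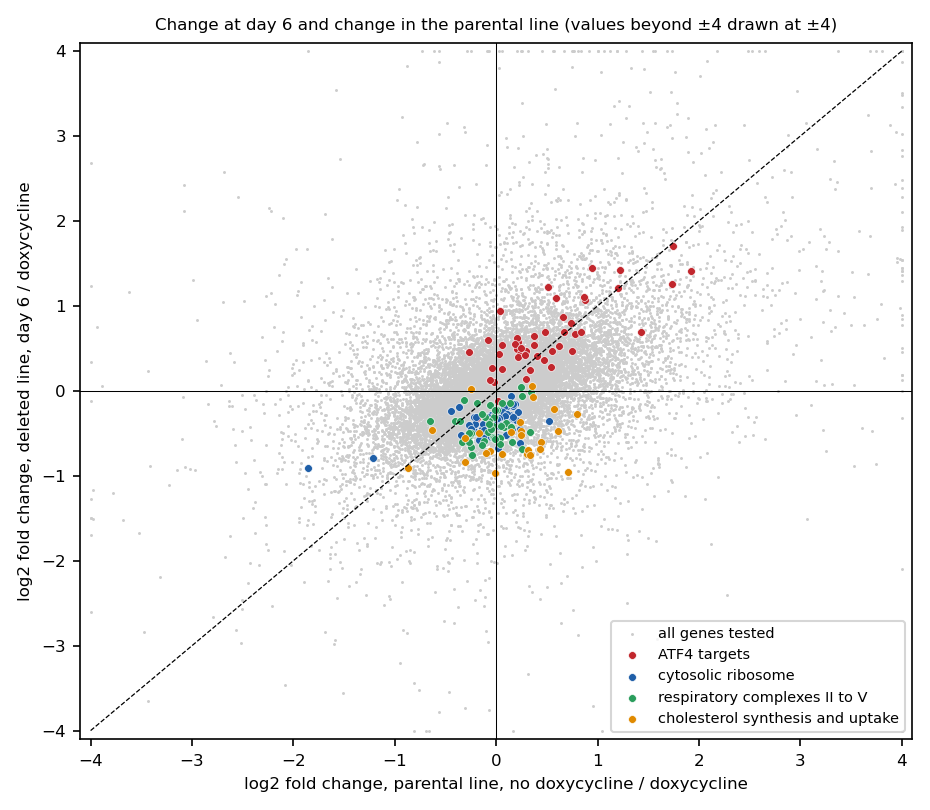
Log2 fold change at day 6 in the deleted line (vertical axis) against that of doxycycline removal in the parental line (horizontal axis), 1 point per gene, with 4 gene lists in colour and the line of equal change dashed; values beyond ±4 are drawn at ±4. ATF4 targets lie in the upper right, with medians of 0.54 at day 6 and 0.38 in the parental line, while the medians of the cytosolic ribosome, complexes II to V and cholesterol genes are -0.36, -0.42 and -0.56 at day 6 and 0.02, -0.04 and 0.24 in the parental line, with single members on either side.

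Targets of ATF4 rose almost as a block. Of 47 measured targets 41 were called higher and 0 lower, with a median log2 fold change of 0.54 against 0.01 over all genes tested, and in 43 of the 47 every day 6 library was above every doxycycline library (23.8% of all genes). The summed level of the list was 6440 to 6917 CPM with doxycycline and 9146 to 9316 CPM at day 6, with no overlap. The 6 members that were not called include PYCR1, ALDH18A1 and ALDH1L2 of proline and folate metabolism, named after their values were seen. In the parental line 35 of the 47 were higher and 0 lower (median 0.38). Beyond the parental change 9 members were called, all in the positive direction. The level at day 6 was not particular to that day. At day 9 the list summed to 8868 to 9360 CPM, and 17 members were higher and 17 lower at day 6 than at day 9. Parental libraries summed to 8435 to 8764 CPM with doxycycline and to 10209 to 11168 CPM without.

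Among the transcription factors of the pathway, DDIT3, also known as CHOP, changed most clearly. DDIT3 (chr12:57516588-57521698, minus strand) was at 19.5, 18.1 and 18.8 CPM with doxycycline and at 45.0, 58.0 and 48.5 CPM at day 6. Its 3′ end overlaps the far more abundant MARS1 on the other strand, and whether the counting used strand is not stated in the labels, so both counts are uncertain. Every day 6 library was above every control library (log2 fold change 1.43 ± 0.12, adjusted p = 4.6e-07). ATF5, a factor linked to mitochondrial stress, went from 17.8, 15.2 and 21.5 to 43.2, 31.9 and 39.4 CPM (1.07 ± 0.12, adjusted p = 7.2e-06). ATF3 rose by 0.67 ± 0.12, CEBPG, a partner of ATF4, by 0.46 ± 0.06, and JDP2 by 0.69. The small stress protein NUPR1 rose by 1.71 from levels under 1 CPM.

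ATF4 messenger RNA moved little. It was at 401, 400 and 400 CPM with doxycycline and at 454, 480 and 444 CPM at day 6, without overlap (0.20 ± 0.06, adjusted p = 0.018). That call was lost without day 6 replicate 2 or doxycycline replicate 3. CEBPB was called at 0.94 ± 0.33 (adjusted p = 0.038), a call that was lost without any 1 of the 6 libraries and in DESeq2. For none of these factors was a change beyond the parental one called. In the parental line ATF4 (0.17), ATF5 (0.88), DDIT3 (1.22), ATF3 (0.78) and CEBPG (0.55) were called higher as well. CEBPB had 0.04 there, with 10.8 CPM in 1 parental library without doxycycline against 53.5 and 54.2 CPM in the other two. The 19 stress transcription factors listed gave 14 higher and 0 lower at day 6, 10 higher and 3 lower in the parental line, and 2 higher and 0 lower beyond the parental change.

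A list of 19 eIF2 kinases, phosphatase subunits, relay proteins, eIF2 itself and its exchange factor gave 3 higher and 8 lower at day 6. The share of all genes was 14% each way. Of the 8 lower members, 6 were EIF2S1, a subunit of eIF2, and EIF2B1 to EIF2B5, the subunits of its exchange factor, named after their values were seen. The parental line gave 4 higher and 7 lower members, and 1 was higher and 0 lower beyond the parental change. The 4 eIF2 kinases were not called, although EIF2AK2 was called with the trend on length and span removed, EIF2AK3 without day 6 replicate 1 and EIF2AK4 with library size alone: EIF2AK1, which receives the mitochondrial signal, had a log2 fold change of 0.09, EIF2AK2, the kinase for double-stranded RNA, -0.10, EIF2AK3, the kinase of the endoplasmic reticulum, 0.19, and EIF2AK4, the sensor of uncharged transfer RNA, 0.12. OMA1, the inner membrane protease that starts the mitochondrial relay, fell by 0.44 ± 0.09 on the log2 scale (18.6, 18 and 20 to 14.7, 13.7 and 13.3 CPM). DELE1, the protein it cleaves, was at 0.02 ± 0.07. Both regulatory subunits of the eIF2 phosphatase rose, PPP1R15A by 0.37 ± 0.08 (adjusted p = 0.003) and PPP1R15B by 0.53 ± 0.10 (adjusted p = 0.00088).

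Secreted factors of the stress response rose from low or moderate levels. GDF15 (chr19:18386158-18389176, plus strand), a hormone that rises in mitochondrial disease, was at 0.828, 0.676 and 0.503 CPM with doxycycline and at 9.47, 10 and 10.4 CPM at day 6. That is a log2 fold change of 3.88 ± 0.34 (adjusted p = 4.5e-07), from a level that was low in all 3 controls. Day 3 libraries (0.355 to 0.596 CPM) were at the control level and day 9 libraries (1.79 to 5.75 CPM) between. INHBE, an activin subunit, went from 1.80, 1.24 and 1.75 to 14.5, 12.1 and 14.9 CPM (3.11 ± 0.29), and ADM2, an adrenomedullin-like peptide, from 13.3, 11.3 and 11.5 to 30.9, 33.0 and 34.3 CPM (1.45 ± 0.11).

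STC2, a glycoprotein hormone, was at 97.6, 93.0 and 89.4 CPM and then at 187, 216 and 195 CPM (1.09 ± 0.06, adjusted p = 2.9e-09). VEGFA, the growth factor for blood vessels and also an ATF4 target, rose by 1.05. In all, 6 of 10 measured secreted factors rose and 0 fell. All these named factors were also higher in the parental line without doxycycline (GDF15 by 2.08, INHBE by 1.69, ADM2 by 0.94, STC2 by 0.59, VEGFA by 0.70). The rise beyond the parental one was called for STC2 (0.50) under every alternative, and for GDF15 (1.80), INHBE (1.42) and ADM2 (0.50), where it was lost when single libraries were left out, for ADM2 in 9 of 12 such fits and also with the trend on length and span removed. In all, 4 of the 10 secreted factors were higher and 1 lower beyond the parental change.

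**Figure D2:**
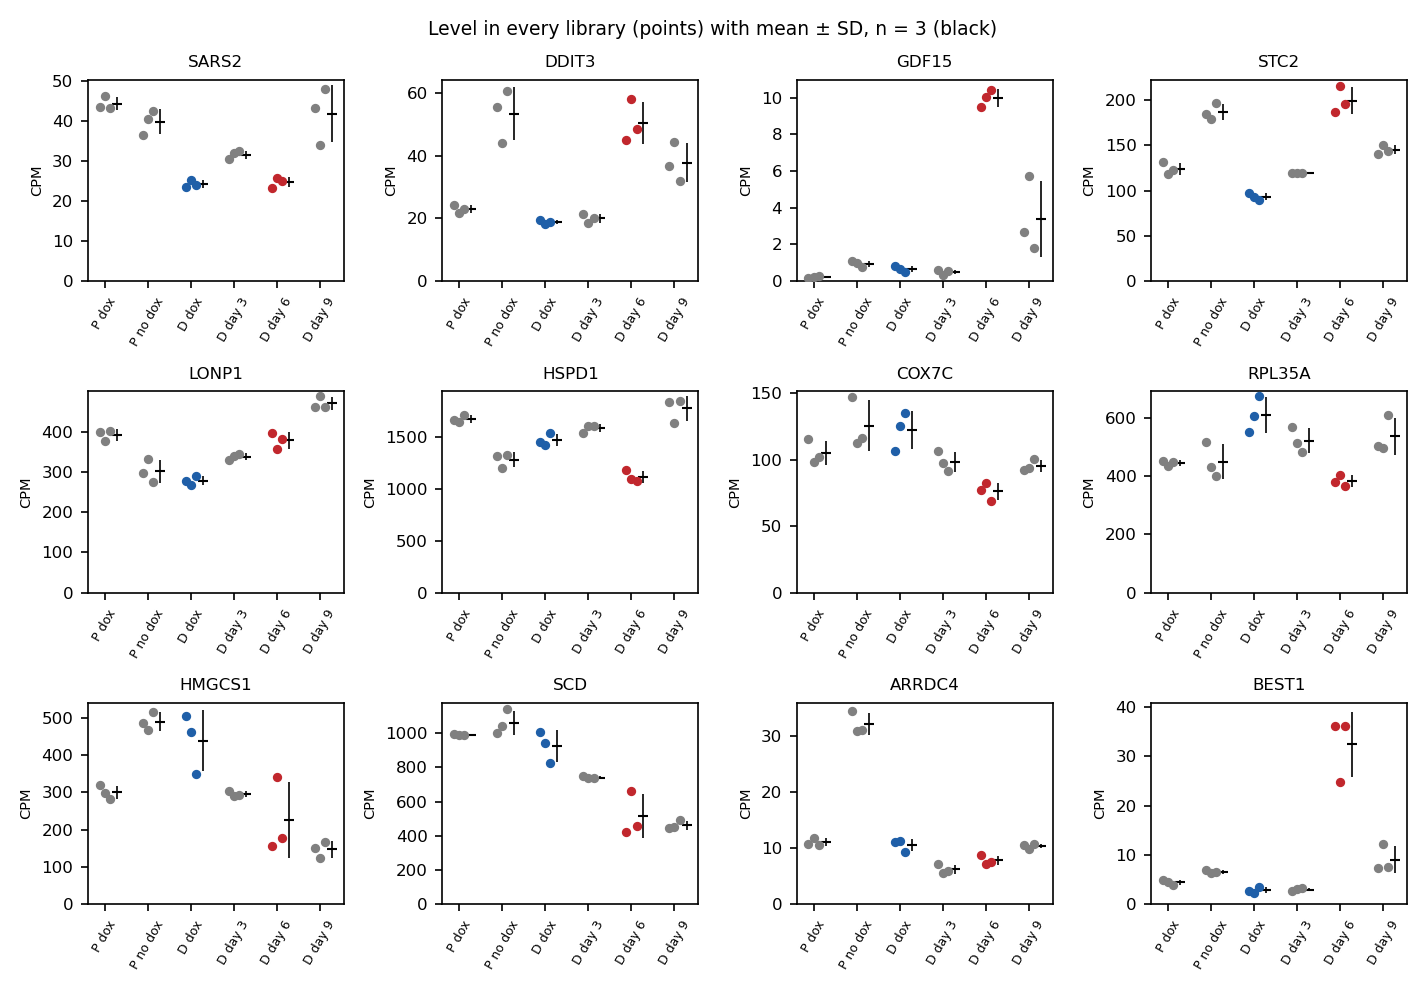
CPM in every library (points, linear axes from 0) of 12 genes in the 6 groups, with mean ± SD (n = 3) in black; P is the parental line, D the deleted line, blue the doxycycline group and red day 6. GDF15 is at 9.47 to 10.4 CPM at day 6 against 0.503 to 0.828 CPM with doxycycline, HMGCS1 shows 1 day 6 library near the controls, and SARS2 does not differ between blue and red.

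Of 20 amino acid transporters 11 rose and 2 fell, or 10 and 5 with the trend on length and span removed. Most of the 11 are also in the ATF4 list. Enzymes for asparagine, proline, alanine, cysteine and arginine gave 5 higher and 2 lower of 17 (median 0.05), against 14% of all genes each way. The lower members were PYCR3 (-0.83) and ASL (-0.42), the latter named after its values were seen. SLC7A11, the cystine carrier, went from 64.6, 66.3 and 56.0 to 128, 137 and 136 CPM (1.10 ± 0.15), SLC6A9, a glycine carrier, rose by 0.80, and SLC3A2, the heavy chain shared by several carriers, rose by 0.62 ± 0.06 and by 0.42 beyond the parental change. ASNS rose from 5.12, 6.23 and 3.56 to 9.29, 14.6 and 10.7 CPM (1.21 ± 0.19) and by 1.20 in the parental line. ASS1, which makes argininosuccinate, was at 61.5, 51.7 and 57.0 CPM and then at 138, 140 and 143 CPM. Its rise of 1.30 ± 0.09 exceeded the parental one by 0.54 ± 0.13 (adjusted p = 0.01).

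Of 24 serine, glycine and one-carbon enzymes 10 rose and 2 fell, or 7 and 8 with the trend on length and span removed. PSAT1 and SHMT2, of serine and of mitochondrial glycine synthesis, rose by 0.54 and 0.58. DMGDH, a mitochondrial enzyme that oxidises dimethylglycine, rose far more, from 1.88, 2.11 and 1.97 to 18.9, 15.4 and 21.1 CPM (3.21 ± 0.20, adjusted p = 6.3e-09). It was at 0.42 to 0.91 CPM at day 9 and at 1.15 to 1.29 CPM at day 3, so that the high level was seen at day 6 and, less, in the parental line without doxycycline (4.93 to 6.63 CPM). Other ATF4 targets that rose were CHAC1 (1.41), DDIT4 and SESN2, which restrain mTORC1 (1.26 and 0.87), and TRIB3, a pseudokinase that dampens the response, which was named after its values were seen (1.22, and 0.71 beyond the parental change).

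Of 20 cytosolic transfer RNA synthetases 10 rose and 5 fell, and of 19 mitochondrial ones 1 rose and 8 fell, against 14% of all genes each way. The parental line gave 10 higher and 5 lower cytosolic and 1 higher and 10 lower mitochondrial enzymes, and the difference between the lists was not tested. With library size alone 12 cytosolic enzymes were higher and 2 lower at day 6. Most of the 10 cytosolic enzymes that rose are also in the ATF4 list. AARS1 went from 306, 282 and 297 to 461, 495 and 470 CPM (0.69 ± 0.07). WARS1, for tryptophan, rose by 0.59 ± 0.07 where the parental line had -0.08, and the difference between both lines was called (0.67, adjusted p = 0.00056). MARS1, for methionine, rose by 0.56 and by 0.37 beyond the parental change, with the same uncertainty from its overlap with DDIT3. CARS1, for cysteine, rose by 0.53, whereas QARS1, for glutamine, fell by 0.26. Among the mitochondrial enzymes AARS2, for alanine, fell (-0.41), as in the parental line (-0.71).

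**Figure D3:**
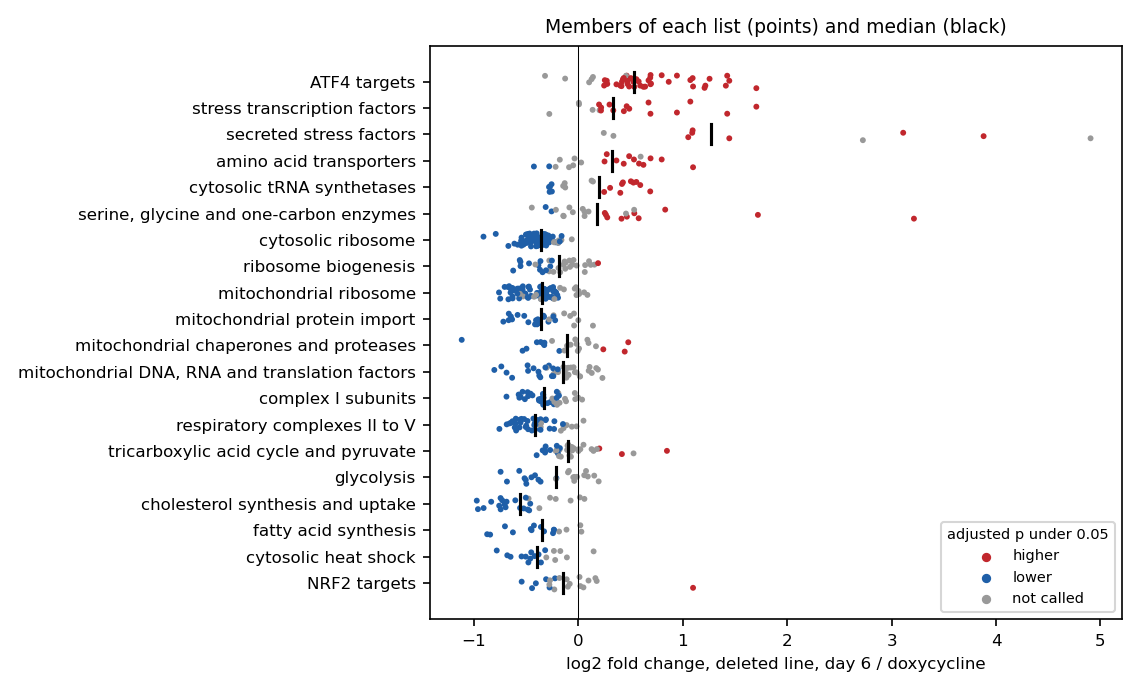
Log2 fold change at day 6 of each measured member (points) of 20 gene lists, red where called higher, blue where called lower and grey where not called, with the list median in black. ATF4 targets have their median at 0.54 and cholesterol genes at -0.56, and the ribosomal and respiratory lists have nearly all members to the left of 0.

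Nuclear genes of the respiratory chain fell together. Of 37 subunits of complex I, the NADH dehydrogenase, 25 fell and 0 rose (median -0.33), and of 42 subunits of complexes II to V 33 fell and 0 rose (median -0.42), against 14% of all genes lower. In 32 of the 37 and 38 of the 42 every day 6 library was below every control library (23.3% of all genes). NDUFB6 was at 43.4, 48.6 and 53.1 CPM with doxycycline and at 29.9, 31.9 and 28.3 CPM at day 6 (-0.69 ± 0.09, adjusted p = 3.1e-05). COX7C, a small subunit of cytochrome c oxidase (chr5:86617941-86620962, plus strand), went from 106, 125 and 135 to 77.3, 82.1 and 68.8 CPM (-0.69 ± 0.10). ATP5F1E and ATP5MC1 of the ATP synthase fell too (-0.76 and -0.66).

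Among parental libraries 10 of 37 and 10 of 42 subunits were lower and 4 of each list higher, with medians of -0.05 and -0.04. Beyond the parental change 13 complex I subunits and 25 subunits of complexes II to V were called lower and 0 higher, against 7.14% of all genes. These counts fell to 6 and 15 when a trend on gene length and span was removed, and to 8 and 13 without day 6 replicate 3 or parental replicate 1 without doxycycline. The differences of COX7C (-0.94 ± 0.15), NDUFB6 (-0.74) and NDUFA2 (-0.59) were called under every alternative. The members that were not called include SDHA, SDHB, UQCRC1 and UQCRC2, larger core subunits named after their values were seen. No library had a count for any of the 37 mitochondrially encoded genes, so the subunits translated inside the organelle are not analysed here.

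Import, assembly and expression machinery of mitochondria fell too, but mostly as in the parental line. Of 82 mitochondrial ribosomal proteins 62 fell and 0 rose (median -0.34), and in the parental line 52 were lower (median -0.29). Beyond the parental change 9 were lower and 3 higher (median -0.01). MRPL27 fell by 0.75 and MRPS7 by 0.67, while MRPL1 had -0.76 at day 6 and -1.45 in the parental line. Of 26 import proteins 18 fell and 0 rose, among them TIMM13, a chaperone of the intermembrane space (138, 138 and 150 to 88.9, 85.9 and 84.4 CPM), and the import receptor TOMM22 (-0.65).

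Of 41 factors for mitochondrial DNA, RNA and translation 16 fell and 0 rose. The fall of FASTKD5, which matures mitochondrial messenger RNAs, was beyond that of the parental line. It went from 28.5, 28.5 and 32.3 to 19.2, 14.7 and 17.3 CPM (-0.80 ± 0.09, adjusted p = 7.6e-06), against -0.01 in the parental line, and it was at 50.4 to 56.0 CPM at day 9. MTERF1, which binds mitochondrial DNA at the end of the ribosomal RNA genes, fell too (-0.69, and -0.79 beyond the parental change). TRMT10C, of mitochondrial transfer RNA processing, fell by 0.74 in this line and by 0.73 in the parental line.

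Chaperones and proteases of the mitochondrial unfolded protein response gave 3 higher and 9 lower of 23, against 14% of all genes each way. The parental line gave 1 higher and 14 lower, and beyond the parental change 4 were higher and 0 lower. LONP1 (chr19:5691834-5720452, minus strand), the main matrix protease, was at 278, 267 and 289 CPM with doxycycline and at 398, 356 and 383 CPM at day 6, with no overlap (0.44 ± 0.07, adjusted p = 8.2e-05). In the parental line it was lower without the drug (-0.38 ± 0.07), and the difference between both lines was 0.83 ± 0.09 (adjusted p = 4.8e-05). GRPEL2, a cochaperone of the matrix, rose by 0.48. HSPD1 and HSPE1, which together form the matrix chaperonin, fell: HSPD1 from 1449, 1427 and 1540 to 1185, 1093 and 1077 CPM (-0.40 ± 0.06), and HSPE1 from 19.1, 25.5 and 31.0 to 12.8, 11.9 and 10.2 CPM (-1.12 ± 0.18). Both genes are divergent neighbours on chromosome 2. PHB1, a scaffold of the inner membrane, fell by 0.53.

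Cytosolic ribosomal proteins fell almost throughout. Of 79 members 72 fell and 0 rose (median -0.36), against 14% of all genes lower. In 76 every day 6 library was below every control library (23.3% of all genes). Their summed level was 68500, 69387 and 76179 CPM with doxycycline and 57251, 58396 and 54849 CPM at day 6. RPL35A went from 552, 605 and 675 to 381, 406 and 365 CPM (-0.67 ± 0.10, adjusted p = 6.2e-05), and RPS29 from 280, 327 and 368 to 217, 229 and 192 CPM (-0.61 ± 0.13). The parental line gave 4 higher and 11 lower with a median of 0.02. Beyond the parental change 47 members were called lower and 1 higher, against 7.14% and 5.49% of all genes. The count of 47 was 25 with the trend on length and span removed, and 25 without day 6 replicate 3. The member that was higher beyond the parental change is RPS10 (-0.91 at day 6 and -1.85 in the parental line), and like RPL17 (-0.79) it lies in a readthrough locus, so that its count is uncertain.

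Genes of ribosome biogenesis fell less at day 6 than in the parental line. Of 33 nucleolar and assembly factors 12 fell and 1 rose at day 6 (median -0.19), and 30 were lower in the parental line (median -0.53). Beyond the parental change 10 were higher and 0 lower. NCL, the main nucleolar protein, fell by 0.62 and UTP4, of the small subunit processome, by 0.55. MYC, which drives this class of genes, rose from 1190, 1197 and 995 to 1572, 1793 and 1795 CPM (0.61). Its partner MAX rose by 0.36 and by 0.43 beyond the parental change. The list of MYC and its partners gave 4 higher and 0 lower of 11 at day 6, and MXD1 of that list rose more than MYC. In the parental line 5 of the 11 were higher and 2 lower, and 1 was higher and 0 lower beyond the parental change.

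**Figure D4:**
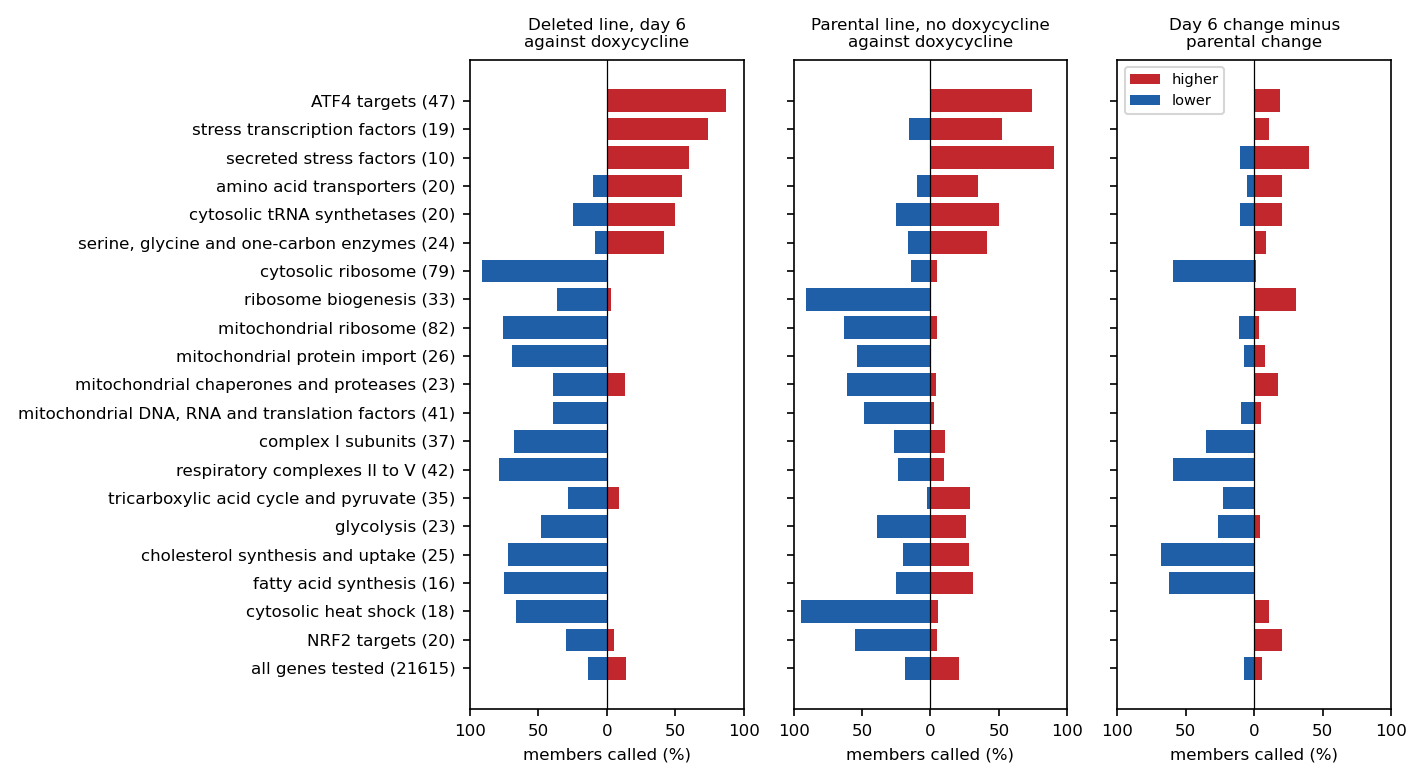
Share of measured members called higher (red, to the right) and lower (blue, to the left) in 20 gene lists and among all genes tested, with the number of members in brackets, for day 6, for the parental line and for the difference of both changes. The cytosolic ribosome, respiratory and lipid lists have blue bars at day 6 and in the difference that are longer than in the parental line. For complex I, parental and difference bars are closer (10 and 13 of 37 lower). Ribosome biogenesis and heat shock lists are bluest in the parental line.

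Lipid synthesis genes fell at day 6, and their change in the parental line was mixed. Of 25 genes of cholesterol synthesis and uptake 18 fell and 0 rose (median -0.56). Parental libraries gave 7 higher and 5 lower members (median 0.24), and 17 were lower and 0 higher beyond the parental change (median -0.72). ACAT2, which makes acetoacetyl-CoA, was at 147, 147 and 148 CPM with doxycycline and at 71.0, 84.4 and 69.7 CPM at day 6 (-0.97 ± 0.07, adjusted p = 3.5e-08), with a parental change of -0.01. At day 3 (145 to 150 CPM) and at day 9 (133 to 152 CPM) it was near the control level. ACAT2 did not stand for its list there, whose summed level was 3631 to 3661 CPM at day 3 and 2832 to 2974 CPM at day 9. In the test of day 6 against day 9, 9 members of the list were higher and 12 lower at day 6. HMGCS1, which makes HMG-CoA (chr5:43287470-43313412, minus strand), was at 506, 461 and 348 CPM and then at 156, 342 and 178 CPM, and was higher without doxycycline in the parental line (0.71). The day 6 change of -0.96 ± 0.20 thus differed from the parental one by -1.67 ± 0.28 (adjusted p = 0.0014).

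Replicate 2 of day 6 stood apart in this list. It had the highest level of the 3 day 6 libraries for 22 of the 25 genes, with a summed level of 3740 CPM against 2511 and 2692 CPM in the others, and the doxycycline libraries were at 4641, 4327 and 3906 CPM. Without that library 23 members were called lower. MVK and TM7SF2, of early and late sterol synthesis, fell (-0.83 and -0.91). Of 16 genes that build fatty acids 12 fell and 0 rose, with 5 higher and 4 lower in the parental line and 10 lower beyond the parental change. SCD, the stearoyl-CoA desaturase, went from 1006, 944 and 824 to 423, 664 and 459 CPM (-0.84 ± 0.12), again with replicate 2 highest. ELOVL6, FADS2 and FADS1, which lengthen or desaturate fatty acids, fell as well (-0.63, -0.87 and -0.70). In the parental line FADS2 (-0.37), FADS1 (-0.29) and TM7SF2 (-0.87) were lower too, and ELOVL6 was higher (0.18).

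Genes of central carbon metabolism gave smaller shares of calls than those of lipid synthesis. Of 23 glycolytic genes 11 fell and 0 rose, with LDHA, lactate dehydrogenase, going from 803, 808 and 934 to 546, 483 and 492 CPM (-0.74) and PGAM1 and ENO1 falling (-0.68 and -0.51). Of 35 genes of the tricarboxylic acid cycle and pyruvate use 10 fell and 3 rose, or 5 and 4 with library size alone, against 14% of all genes each way. In the parental line 6 glycolytic genes were higher and 9 lower, and 10 cycle and pyruvate genes were higher and 1 lower. Beyond the parental change 1 glycolytic gene was higher and 6 lower, and 0 cycle and pyruvate genes were higher and 8 lower. PDHB, of pyruvate dehydrogenase, fell by 0.40 and by 0.58 beyond the parental change. PDK1, which inhibits that enzyme, rose by 0.42, and PCK2, the mitochondrial PEP carboxykinase and an ATF4 target, by 0.85. ETFDH, which passes electrons from fatty acid oxidation to ubiquinone, fell by 0.48, with a parental change of 0.13 that was not called.

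Genes that respond to glucose through the factors MondoA and ChREBP gave 1 higher and 2 lower of 9 at day 6, against 14% of all genes each way. In the parental line 5 were higher and 3 lower. ARRDC4, an arrestin that lowers glucose uptake, went from 11.1, 11.2 and 9.38 to 8.73, 7.11 and 7.56 CPM at day 6 (-0.44 ± 0.11) and from 10.8, 11.9 and 10.6 to 34.5, 31.0 and 31.0 CPM in the parental line (1.53 ± 0.11). The difference was -1.97 ± 0.15 (adjusted p = 3.8e-07). TXNIP, its homologue, was named after its values were seen: it was at 28.1, 29.6 and 17.9 CPM with doxycycline and at 18.3, 19.2 and 17.6 CPM at day 6, and at 17.5 to 19.8 and 148 to 186 CPM in the parental line. The day 6 and doxycycline ranges overlapped and that call (-0.46, adjusted p = 0.036) was lost in 5 of the 6 fits without a library, while the difference between lines (-3.68) was called in all 12 fits without a library.

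Other stress programmes gave mixed counts. Of 18 cytosolic heat shock genes 12 fell and 0 rose, with HSP90AA1 at 3101, 3113 and 3775 CPM and then at 2198, 1700 and 1918 CPM (-0.78). The parental line had 17 lower. Of 20 targets of the antioxidant factor NRF2 6 fell, among them TXNRD1 (-0.41), and 1 rose, SLC7A11, which is in the ATF4 list as well. The parental line had 1 higher and 11 lower of these targets, and 4 were higher and 0 lower beyond the parental change. HERPUD1, of protein degradation at the endoplasmic reticulum, rose by 1.40. The 22 genes of that organelle's unfolded protein response, however, gave 6 higher and 2 lower (median -0.01), against 14% of all genes each way. Day 6 replicate 2 was the highest day 6 library for 21 of those 22 genes, with a summed level of 5276 CPM against 4412 and 4442 CPM in the others. Metallothioneins, which bind zinc and copper, fell in 4 of 7 members of their list, with MT2A going from 39.4, 35.4 and 42.6 to 19.5, 22.7 and 20 CPM (-0.91) and MT1X and MT1E falling (-0.93 and -0.96). Their near-identical sequences make the counts of single members uncertain.

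Growth and turnover genes moved less evenly. Of 37 DNA replication genes 17 fell and 2 rose, with FEN1 and GINS4 falling (-0.52 and -0.59), against 14% of all genes each way. The parental line gave 1 higher and 23 lower of these, and 6 were higher and 2 lower beyond the parental change. Of 29 mitosis genes 6 rose and 1 fell, with KIF23 rising by 0.38, against the same 14%. In the parental line 10 were higher and 3 lower, and 0 were higher and 4 lower beyond the parental change. The count of mitosis genes higher was 2 with the trend on length and span removed and 10 with library size alone, and day 6 replicate 2 was the highest day 6 library for 26 of the 29. Among 26 autophagy genes 6 rose and 5 fell, against 14% of all genes each way. That balance was 9 and 3 with library size alone and 4 and 5 with the trend removed. WIPI1 and ULK1, of early autophagosome formation, rose by 0.85 and 0.58. GABARAPL2, of late steps, fell by 0.26 where it was higher in the parental line (0.41). Of 19 feedback genes of the ERK pathway 6 rose and 0 fell, among them PHLDA1 (0.99), SPRED2 (0.29) and EGR1, an early growth response factor, which rose by 0.87 from 4.31 to 6.04 CPM in the controls to 10.5, 6.01 and 10.5 CPM, so that 1 day 6 library lay within the control range. The ERK count was 3 with the trend on length and span removed. Targets of p53 gave 2 higher and 4 lower of 20 (median -0.07), against 14% of all genes each way. Among them TP53I3 fell (-0.69, and -1.91 in the parental line) and TNFRSF10B rose. The parental line gave 6 higher and 7 lower of these targets, and 3 were higher and 3 lower beyond the parental change.

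Genes with the largest rises, among those at 1 CPM or more in either group whose call held without each of the 6 libraries, started from low levels. BEST1 (chr11:61949821-61965515, plus strand), a chloride channel, went from 2.60, 2.26 and 3.49 to 36.2, 24.9 and 36.3 CPM (3.55 ± 0.21, adjusted p = 2.9e-09). The parental line had 3.87 to 4.87 CPM with the drug and 6.28 to 7 CPM without, and the difference between both changes was 2.97 ± 0.28. LGR6, a receptor for R-spondins, went from 0.0492 to 0.145 CPM to 3.75, 2.33 and 3.50 CPM (4.90 ± 0.53), and FSTL4 (3.22), SPNS2, a sphingosine phosphate exporter (3.05), PRR35 (2.87) and LOC124903862 (3.41) rose from under 1 CPM. Each of those 5 was also called beyond the parental change. LINC01512 (4.51), GRM4, a glutamate receptor (3.05), and DEPP1 (2.86) rose without such a difference.

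Among the largest falls chosen in the same way were GLYATL2 (-2.25), SAMD15 (-1.96), IGSF10 (-1.87) and LGSN (-1.75), all of which were also lower in the parental line without doxycycline. The microRNA gene MIR12136 had a fitted fall of -4.76 ± 1.18, from 7.33, 3.63 and 3.78 to 0.335, 0.110 and 0.108 CPM. Its difference from the parental line was lost in 9 of 12 fits that left out a library. NEAT1, the paraspeckle RNA, rose by 1.25.

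Blood cell markers passed the filter on low counts for 4 of 10 genes, of which 2 rose and 0 fell, and summed to 15.3 to 17.6 CPM with doxycycline and 18.7 to 22.8 CPM at day 6. Epithelial markers passed the filter for 6 of 10 genes and 3 of these rose, EPCAM (0.443 to 0.828 CPM, then 1.29 to 1.96 CPM), ESRP1 (5.71 to 6.00 CPM, then 10.6 to 12.4 CPM) and KRT8 (1.76 to 2.19 CPM, then 3.27 to 3.81 CPM), while CDH1 did not pass. The list's summed level was 39.1 to 43.5 CPM with doxycycline and 45.7 to 60.4 CPM at day 6. Mesenchymal markers rose in 4 and fell in 1 of 10 measured members and summed to 724 to 802 and 735 to 755 CPM. Of 5 neural markers 2 rose and 1 fell, TUBB3 (-0.81), with a median of -0.02. The stem cell factor SOX2 was high in all libraries and rose from 2690, 2607 and 2096 to 3721, 4311 and 4243 CPM (0.73), with 0.78 in the parental line. The part of these markers in the results above was not tested.

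Gene span moved with the change. Protein-coding genes spanning up to 3 kb had a median log2 fold change of -0.19 and those over 300 kb one of 0.25, and 31.1% of the latter rose against 7.08% of the former. Spearman's rho between span and fold change over 14302 protein-coding genes was 0.236 at day 6 and 0.223 in the parental line, and -0.0391 for the difference of both changes, as a description across genes that are not independent. With the trend on length and span removed from each library, the medians were -0.33 for the cytosolic ribosome, -0.29 for complex I, -0.40 for complexes II to V, -0.64 for cholesterol genes and 0.52 for ATF4 targets.

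**Figure D5:**
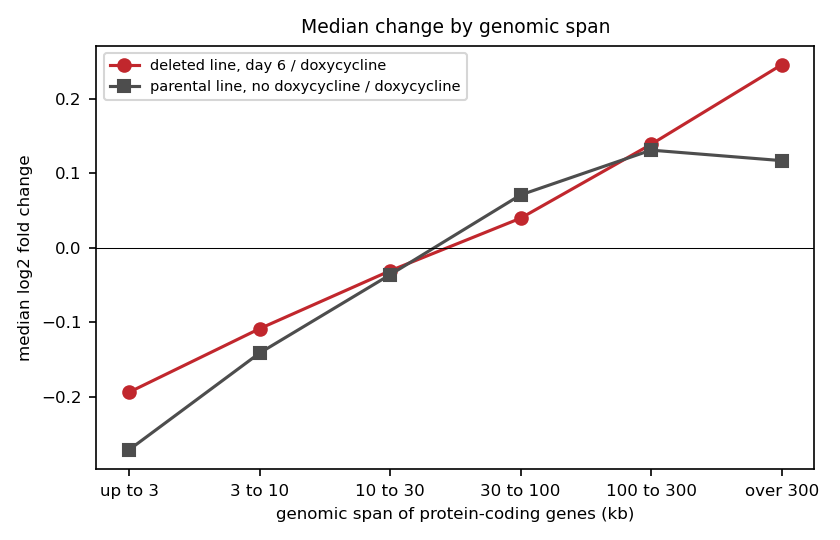
Median log2 fold change of protein-coding genes in 6 classes of genomic span (kb), for day 6 in the deleted line (red circles) and for doxycycline removal in the parental line (grey squares). The median at day 6 goes from -0.19 for genes up to 3 kb to 0.25 for genes over 300 kb.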

How the data were processed

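The values the authors deposited are read counts for each gene, in 3 tables, unnormalized as the file headers and whole-number values show. Tools in the submitters' processing notes are cutadapt (version 2.3), HISAT2, SAMtools, Subread with featureCounts, and DESeq2, with GRCh38 as the build. Neither the annotation release nor the strand setting is stated there. Lines of 16 genes that were split in 1 of the files were joined again, and 6 libraries present in 2 files with equal counts entered once. The 18 libraries, grouped by GEO's labels, held 66850705 to 111123481 counts. Replicate pairs were further apart than counting alone gives, with a chi-square per gene of 7.71 to 32.6 in the groups compared here over genes with a summed count of at least 20, so none was counted as a copy of another.

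The test was that of edgeR 4.0.16 (R 4.3.3): filterByExpr by group (21615 genes), TMM scaling, and a quasi-likelihood fit with 1 mean per group to all 18 libraries, with Benjamini-Hochberg adjustment over all genes tested and calls at 0.05. The coefficient of variation between libraries was 0.12. CPM are relative to the TMM-scaled total. The procedure was tested on simulated data. The text names SARS2, its neighbours and the main stress regulators whatever their values, up to 4 members per list and direction, and genes among the 12 largest rises and 12 largest falls; members and top genes had to be called also without each of the 6 libraries and to reach 1 CPM in either group. The members and lists were chosen with earlier results of these data known, so no list is independent evidence, and lists are described by counts and medians without a test. Several lists share members with the ATF4 list, so their counts are not separate results. Alternatives were DESeq2 1.42.0, other scalings, no filter, only the groups compared, a replicate block, a smooth trend on length and span (mgcv 1.9.3) removed, and leaving out each library. Some results are not reported here.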

Additional observations from a re-analysis of the deposited data

Results flagged for a closer look

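These results are listed because the change at day 6 and the change of the parental line differed by a test of the difference itself, in edgeR's quasi-likelihood fit with adjustment over all genes. Values are the day 6 change minus the parental change on the log2 scale. The difference was positive for 1186 genes and negative for 1543.

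Among stress genes it was 0.50 for STC2, 0.54 for ASS1, 0.42 for SLC3A2, 1.32 for DMGDH, 0.67 for WARS1, 0.37 for MARS1, 0.71 for TRIB3 and 0.83 for LONP1. In mitochondrial genes it was -0.79 for FASTKD5, -0.79 for MTERF1, -0.74 for NDUFB6, -0.59 for NDUFA2, -0.94 for COX7C, -0.58 for PDHB and -0.61 for ETFDH. Ribosomal proteins had -0.68 for RPL35A, -0.84 for RPS29 and 0.95 for RPS10. Lipid genes had -1.67 for HMGCS1, -0.96 for ACAT2, -0.94 for SCD, -0.42 for FADS1, -0.50 for FADS2 and -0.80 for ELOVL6.

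Other values were -1.97 for ARRDC4, -3.68 for TXNIP, -0.81 for MT1X, -0.68 for MT2A, 1.27 for EGR1, 0.46 for SPRED2, 0.43 for MAX, -0.68 for GABARAPL2, 1.22 for TP53I3 and 0.89 for NFKBIB. Genes with large rises had 3.62 for LGR6, 2.97 for BEST1, 2.20 for LOC124903862, 4.15 for FSTL4, 3.36 for SPNS2 and 2.77 for PRR35. All differences named so far were called in each of the 12 fits without 1 library and under the 7 other settings.

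The next ones lost the call in at least 1 of these fits: 1.80 for GDF15, 1.42 for INHBE, 0.50 for ADM2, -0.33 for QARS1, 0.27 for GPT2, 0.69 for MRPL1, -0.56 for NDUFB1, -0.41 for ATP5MC1, -0.52 for MVK, -0.34 for LDHA, 1.27 for EPCAM and -4.93 for MIR12136. No cause of these differences was tested.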

How the results depend on the processing

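The number of calls at day 6 was 3834 to 5855 without 1 library at a time, 5889 with the trend on length and span removed, 6292 with library size alone, 6711 in DESeq2 and 7311 with only the groups compared. Without 1 library at a time, day 6 gave 1849 to 2783 higher and 1985 to 3072 lower genes, both fewest without doxycycline replicate 3 of the deleted line. The difference from the parental change gave 713 to 1589 higher (fewest without parental doxycycline replicate 3) and 889 to 1726 lower genes (fewest without day 6 replicate 3). Members lower beyond the parental change numbered 8 to 15 for complex I, 13 to 26 for complexes II to V, 5 to 9 for the mitochondrial ribosome and 25 to 52 for the cytosolic ribosome. With the trend removed, day 6 gave 1925 higher genes, and members lower beyond the parental change numbered 6, 15 and 25 for complex I, complexes II to V and the cytosolic ribosome. DESeq2 gave 1781 genes higher beyond the parental change. The share of higher calls at day 6 was 50% in the reported fit, 64.3% with library size alone and 32.7% with the trend removed. The cause of these shifts was not tested. Counts of list members called at day 6 stayed within 1.5 times for ATF4 targets (37 to 43 over all alternatives), the cytosolic ribosome (55 to 77) and cholesterol genes (16 to 23).

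Of 1612 pairs of a named gene and an alternative at day 6, 1587 kept direction and call, 16 lost the call, 4 gained it (NFKBIB, EIF2AK2, EIF2AK3 and EIF2AK4) and 5 changed sign, the latter all in genes that were not called. The sign changes were SARS2 (-0.0146 without day 6 replicate 2, and up to 0.063 without replicate 1), EIF2AK4 at -0.0219 with the trend removed, and DELE1 at -0.0695 with the trend removed, -0.0064 without day 6 replicate 2 and -0.0101 without doxycycline replicate 3 (up to 0.0492 without doxycycline replicate 2). Libraries with the same replicate number did not deviate together (correlations of -0.077, 0.026 and -0.012 over genes). Those with unlike numbers had correlations of -0.091 to 0.11. These values cannot tell whether libraries of the same number were handled together, and the reported fit did not pair them. A fit with the replicate number as a block gave 5834 calls at day 6, 2896 higher and 2938 lower, against 6070.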
